A study of Mus musculus with 9 samples.

Results

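The genes described here are *Chat*, *Slc5a7*, *Slc18a3*, *Slc10a4*, *Ache* and *Prima1*, which serve the synthesis of the transmitter acetylcholine, the uptake of its precursor, its storage in vesicles and its breakdown. They were chosen by name, and 5 of the 6 listed genes were measured among 21457 features. *Slc18a3* was not analysed here. The levels come from single-nucleus RNA sequencing (snRNAseq) of GFP+ nuclei sorted from the spinal cord of 12 mice, 6 of each sex, pooled by 4. Cervical, thoracic and lumbar/sacral pieces of each pool were sequenced apart, which gave 9 libraries, 3 for each of 3 regions. Replicate 1 came from the pool of both sexes, with 2 males, replicate 2 from the male pool and replicate 3 from the female pool. The authors' labels place 16042 cholinergic nuclei in 3 classes and 21 clusters: 5054 nuclei of skeletal motor neurons (MNs) in clusters S1 to S3, 5613 of visceral MNs in V1 to V10 and 5375 of cholinergic interneurons in I1 to I8.

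All mice were 8 weeks old, of the strain Chat-IRES-Cre::Sun1-sfGFP and carried 1 copy of each allele (genotype Chat-iCre:+/wt; SUN-SfGFP:+/wt), so the groups differ in region, sex of the pool, class and cluster but share the Cre driver and the reporter. Cre is expressed from the *Chat* locus and turns on a GFP-tagged protein of the nuclear envelope (CAG-Sun1/sfGFP), which then stays on in that cell. Sorting on GFP and typing nuclei as cholinergic both rest on *Chat*, and clusters typed as other neurons had been removed by the authors. A level of *Chat* over all of these nuclei is therefore in part a product of how they were chosen. Each library holds nuclei of 4 mice, so the spread between libraries is not a spread between single animals.

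Motor neurons release acetylcholine onto muscle and, in the autonomic system, onto ganglion cells, while cholinergic interneurons act within the cord, among other targets on motor neurons through C-boutons. The enzyme encoded by *Chat* joins choline to an acetyl group in the terminal, the vesicular transporter encoded by *Slc18a3* loads the product into vesicles, and after release acetylcholinesterase splits it so that choline can be taken up again by the transporter encoded by *Slc5a7*. Acetylcholinesterase is held in place by anchors, of which the membrane protein encoded by *Prima1* serves neurons and the collagen tail encoded by *Colq* serves the neuromuscular junction.

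The values were read as counts that the authors had corrected with SCTransform, a model of depth, and are used as model values and not as numbers of molecules. This reading rests on the study's methods and on the values, whole numbers whose totals vary little within a library, and it bears on every level and share given here. The libraries held 2825, 747 and 1420 nuclei in cervical replicates 1 to 3, 1538, 1743 and 1630 in thoracic and 2587, 1769 and 1783 in lumbar/sacral replicates. The median total per nucleus, in the same order, was 7087, 16127 and 10256 corrected counts in cervical, 11077, 9380 and 8276 in thoracic and 4712, 7175 and 5701 in lumbar/sacral libraries. Between classes the medians were closer, at 7393 for skeletal MNs, 7519 for visceral MNs and 6986 for interneurons. Of the nuclei, 66 carried a barcode that also occurred in another library (33 barcodes). For a level, the corrected counts of a gene were summed over a library's nuclei of 1 class or cluster, where there were at least 10 of them, and scaled to a total of 1000000 (CPM). It can be compared between groups of nuclei for the same gene but not between genes, since no level is given per length.

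The region labels of 2 libraries were in doubt. *Hoxc5*, a Hox gene whose level separates parts of the cord, was at 25.4, 73.3 and 22.5 CPM in cervical replicates 1, 2 and 3 and at 85.3, 13.9 and 84.2 CPM in thoracic replicates 1, 2 and 3. Cervical replicate 2 thus had the level of the other thoracic libraries, and thoracic replicate 2 that of the other cervical libraries. *Zeb2*, a marker of visceral MNs, was at 204, 249 and 159 CPM in the cervical and at 267, 100 and 247 CPM in the thoracic libraries, again with replicate 2 on the side of the other region. *Hoxa10*, a gene of the caudal cord, was at 9.46, 16.3 and 10.0 CPM in the lumbar/sacral libraries and at no more than 1.20 CPM in the others, and *Hoxd10* was at 8.01, 5.01 and 4.10 CPM there and at 0 elsewhere, so by these genes the lumbar/sacral labels stood apart. *Hoxc10* was low throughout, at 0.341, 1.97 and 1.44 CPM there and at up to 0.429 CPM elsewhere, and did not set lumbar/sacral replicate 1 apart. The sex of the pools matched *Xist*, at 291, 0.257 and 659 CPM, and *Uty*, at 95.3, 150 and 0.496 CPM, in cervical replicates 1, 2 and 3. Cervical replicate 2 and thoracic replicate 2 are kept under their labels below, and results are also given without both. Of the 8 genes listed to check the regions, 4 were measured. Cervical replicate 3 stood apart from its pool: its deviations from the region means over all genes tested correlated with those of thoracic replicate 3 at r of -0.22, -0.14 and -0.19 and of lumbar/sacral replicate 3 at -0.12, -0.01 and -0.07 (skeletal MNs, visceral MNs, interneurons), while the other pairs within pools had 0.34 to 0.92. Without this library no call of the 5 genes between classes or clusters changed. The region means behind these correlations include cervical and thoracic replicate 2 under their doubted labels. Correlations without both were not computed.

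**Figure D1:**
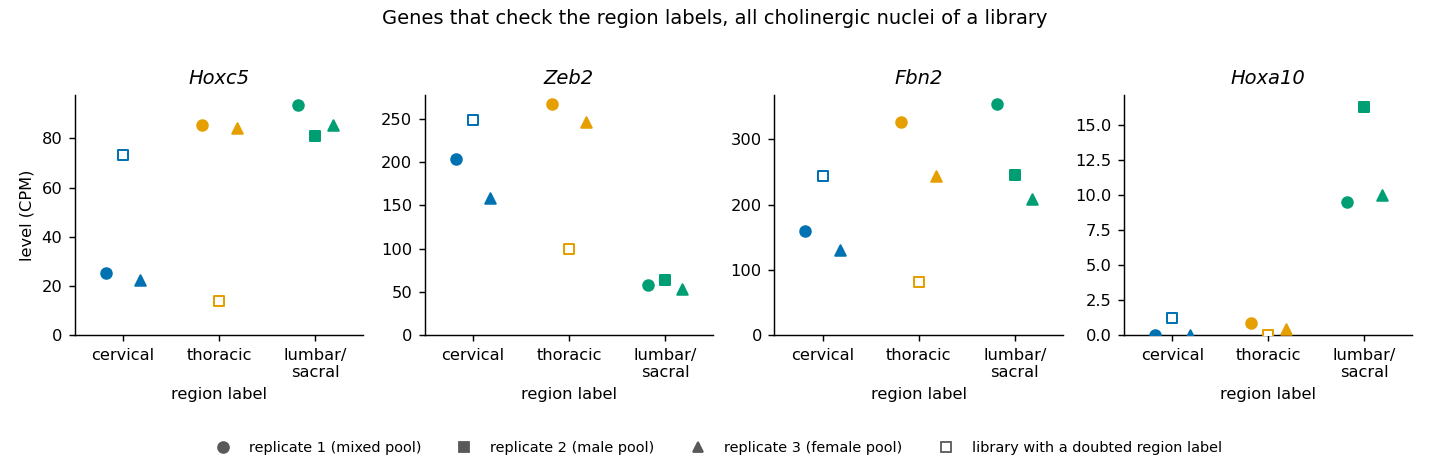
Level in CPM of *Hoxc5*, *Zeb2*, *Fbn2* and *Hoxa10* over all cholinergic nuclei of each library, by region label; each point is 1 library, its shape is the pool, and open squares are cervical and thoracic replicate 2. The open square at 73.3 CPM of *Hoxc5* lies with the thoracic libraries and the one at 13.9 CPM with the cervical libraries.

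Class labels were described with summed lists of markers. The authors had assigned the classes in these same nuclei with *Pax2*, *Mpped2*, *Zeb2*, *Fbn2* and *Tns1*. These markers therefore cannot check the labels. The skeletal MN list (*Tns1*, *Prph*, *Isl1* and *Mnx1*) was at 623, 172 and 12.8 CPM in skeletal MNs, visceral MNs and interneurons. The visceral list (*Zeb2*, *Fbn2* and *Nos1*) was at 44.2, 1229 and 463 CPM, and *Nos1* made up 446 of the CPM in interneurons. *Nos1* alone was lower in visceral MNs, at 208 CPM, than in interneurons. The interneuron markers *Pax2* and *Mpped2* summed to 27.8, 11.1 and 467 CPM. Each list was highest in the class it names, though the skeletal list was also found in visceral MNs and the visceral list in interneurons. Among cells that a sort can carry along, astrocyte markers (3 of 3 measured) summed to at most 2.53 CPM in a class and the 1 measured endothelial marker of 2, *Flt1*, to at most 1.16. By cluster the astrocyte sum was highest in I2, at 8.35 CPM. Of 3 microglial markers 2 were measured and summed to 10.8, 11 and 10.3 CPM, nearly all of it *Cx3cr1*, with *Csf1r* at no more than 0.959. The oligodendrocyte markers *Mbp*, *Mobp* and *Mog* were higher and differed between classes, with a sum of 61.7, 30.9 and 25.3 CPM in skeletal MNs, visceral MNs and interneurons, of which *Mbp* made up 59.2, 28.2 and 22.7 and *Mog* at most 1.38.

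Classes and clusters had been drawn from these same nuclei, so the tests between them describe the labels. Differences were tested with limma on the log2 of CPM plus 5, with libraries as replicates and a term for the library. Genes entered a test when 3 or more sums reached 10 CPM, and p values were adjusted over all genes tested after Benjamini and Hochberg. Between classes or clusters a call needed an adjusted p under 0.05 together with a log2 difference of at least 1 either way. Between skeletal and visceral MNs limma called 2 of the 5 measured genes, *Slc10a4* as higher and *Prima1* as lower in skeletal MNs, where 11.8% of all 11292 genes tested were called. Between skeletal MNs and interneurons none of the 5 was called, against 10.7% of all genes (7147 genes, these 5 included, had an unadjusted p under 0.05). Between visceral MNs and interneurons 1 of the 5 was called, *Prima1* as higher in visceral MNs, against 7.75% of all genes. The median absolute log2 difference over all genes in these comparisons was 0.27, 0.22 and 0.18. All 5 genes passed the filter on low levels, and *Slc10a4* did so through the sums of skeletal MNs alone, the class where it was high.

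**Figure D2:**
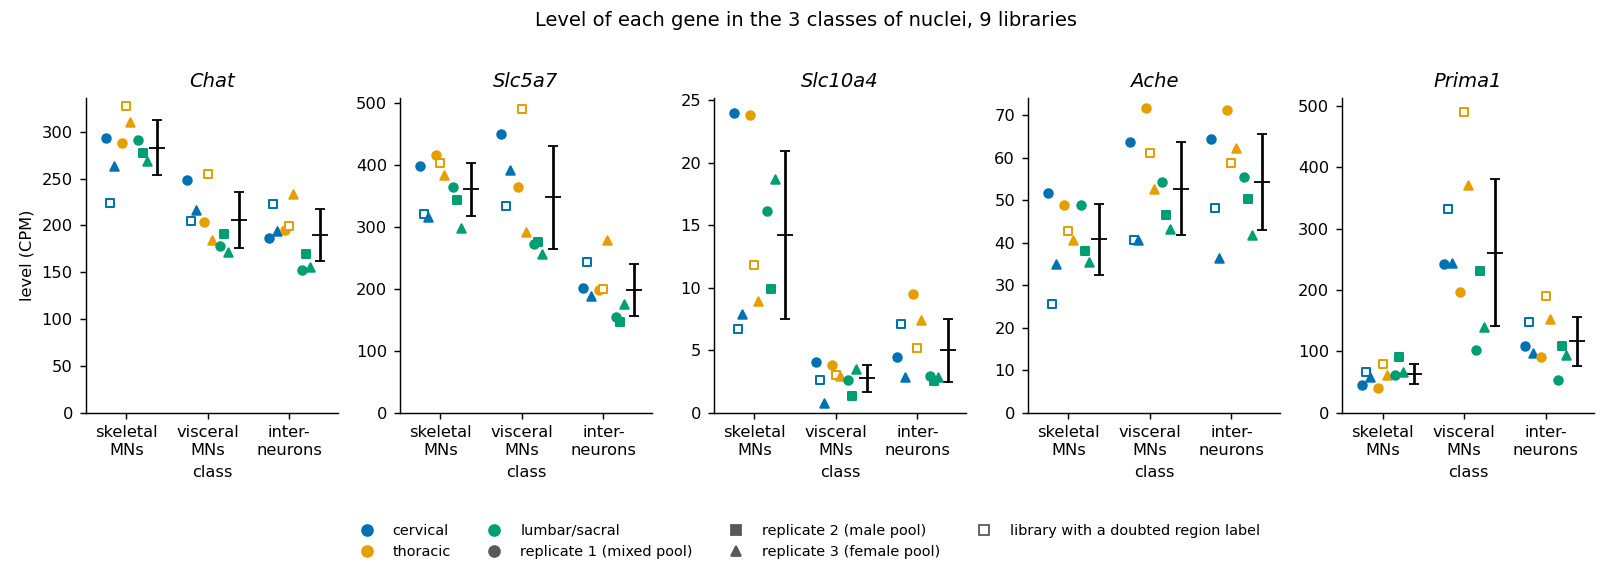
Level in CPM of the 5 measured genes in skeletal MNs, visceral MNs and cholinergic interneurons; each point is 1 of 9 libraries, with color for region and shape for pool, open squares mark the libraries with a doubted region label, and bars are mean ± SD. *Slc10a4* in skeletal MNs (6.68 to 24.0 CPM) lies wholly above visceral MNs, and *Prima1* in visceral MNs (102 to 490 CPM) wholly above skeletal MNs.

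*Chat* (ENSMUSG00000021919; chr14:32408203-32465989 of GRCm38, minus strand) encodes choline acetyltransferase, the enzyme of acetylcholine synthesis. Over the 9 libraries its level in skeletal MNs ran from 224 to 327 CPM with a median of 288. In visceral MNs it ran from 171 to 255 CPM (median 204) and in interneurons from 152 to 233 CPM (median 194). Skeletal MNs were the highest class in all 9 libraries, although the ranges overlapped: the lowest skeletal value, 224 CPM in cervical replicate 2, lay within the range of both other classes. The log2 difference between skeletal and visceral MNs was 0.45 (limma, standard error 0.07, adjusted p = 1.4e-05) and between skeletal MNs and interneurons 0.57 (standard error 0.07, limma adjusted p = 8.45e-07), both short of the size required for a call. Visceral MNs were above interneurons in 7 of 9 libraries, with a log2 difference of 0.11 (limma adjusted p = 0.202).

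Among the 21 clusters, *Chat* was highest in I5, at 377 ± 63.8 CPM (SD, n = 9 libraries, as for the other clusters unless another n is given). S1 followed at 298 ± 18.5, S3 at 295 ± 29.6, I6 at 294 ± 76.8 and S2 at 257 ± 48.1. Most visceral clusters came next and close together, with V6 at 248 ± 43.6 (n = 8), V2 at 239 ± 50.7, V4 at 232 ± 30.9, V10 at 224 ± 51.6 (n = 7), V9 at 215 ± 25.5 (n = 6), V5 at 215 ± 35.7 (n = 7), V1 at 212 ± 35.8 and V3 at 203 ± 43.6. The 5 highest clusters were thus 2 of the interneuron clusters and all 3 skeletal clusters. Below them were I1 at 194 ± 26.9, I3 at 172 ± 21.2, V8 at 143 ± 9.67 (n = 3), I4 at 144 ± 23.1 and V7 at 121 ± 29.3. The lowest were I8 at 97.9 ± 37.2 (n = 8), I2 at 53.0 ± 16.6 and I7 at 31.2 ± 30.9 (n = 6). In this order, set by the mean of log2 values, 4 of 20 neighbours differed by more than the SD of their paired difference, namely I5 and S1, I1 and I3, I8 and I2, and I2 and I7. The other 16 did not. With at least 30 nuclei per library it was 2 of 16, I5 and S1, and I8 and I2.

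The interneuron clusters held both ends of the range. I2, I7 and I8 were set against the mean of I1, I3, I4, I5 and I6, and since I2 and I7 were known from earlier results of these data to be low in *Chat*, that gene is described there without a test. *Chat* ran from 32.1 to 77.0 CPM in I2, from 0 to 73.4 CPM in I7 and from 45.4 to 143 CPM in I8, against 195 to 282 CPM in the mean of the other clusters. The ranges did not overlap that of the mean, which I5 and I6 raise, and I8 was lower than it in 8 of 8 libraries. I8 did overlap I4, which ran from 118 to 180 CPM. In I8 the log2 difference was -1.20, and without the doubted libraries -1.27. The mean leaves out I2 and I7, known to be low in *Chat*, so this too is a description. Of the 5 genes 2 met the rule for a call in I8, *Chat* and *Slc5a7*, both lower, where 10% of all 12967 genes did, and nothing is read from that count. Markers of inhibitory neurons (4 of 4 measured) summed to 373 CPM in I2, 223 in I7 and 920 in I8, led by *Gad2* at 232, *Gad1* at 74.2 and *Slc6a5* at 874 CPM. They summed to 290, 461 and 447 CPM in I1, I3 and I4 but to 23.2 and 20.2 CPM in I5 and I6, the interneuron clusters with the most *Chat*. The part of inhibitory neurons in the low *Chat* was not tested.

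A corrected count of *Chat* was found in 88.8% ± 6.97 of skeletal MN nuclei and 62.7% ± 13.0 of interneuron nuclei (SD over 9 libraries), and in 32.2% ± 8.54 of I2, 15.5% ± 12.8 of I7 and 49.7% ± 14.4 of I8. After thinning each nucleus to 4600 corrected counts, which left out 8.63% of nuclei, all of them from lumbar/sacral replicate 1 (44.1% of its nuclei) and replicate 3 (13.6%), the shares in I2, I7 and I8 were 19.0%, 10.6% and 37.8%, and those in skeletal MNs and interneurons 71.5% and 49.1%. No group of nuclei that should lack these genes was at hand as a background for any share given here.

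*Slc5a7* (ENSMUSG00000023945; chr17:54273590-54299034, minus strand) encodes the high-affinity choline transporter, which returns choline to the terminal. Its level over the 9 libraries ran from 299 to 416 CPM in skeletal MNs (median 365), from 257 to 491 CPM in visceral MNs (median 334) and from 147 to 279 CPM in interneurons (median 198). Interneurons were the lowest class in each library and their range lay below that of skeletal MNs, while skeletal and visceral MNs overlapped fully and skeletal MNs were higher in 5 of 9 libraries. The log2 difference from interneurons was 0.86 in skeletal MNs (standard error 0.10, limma adjusted p = 1.27e-07) and 0.79 in visceral MNs (standard error 0.10, limma adjusted p = 7.82e-07), both under the size required for a call. Between skeletal and visceral MNs it was 0.08 (standard error 0.10, limma adjusted p = 0.498).

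By cluster, *Slc5a7* was at 473 ± 245 CPM in V10 (SD, n = 7), 417 ± 31.3 in S1, 397 ± 52.4 in I5, 422 ± 161 in V2, 409 ± 141 in I6, 392 ± 131 in V3 and 379 ± 81.4 in V6 (n = 8). S3 followed at 362 ± 53.0, V5 at 357 ± 103 (n = 7), V4 at 355 ± 111, S2 at 310 ± 68.4, V1 at 303 ± 39.9, V8 at 290 ± 11.8 (n = 3) and V7 at 282 ± 60.9. From V10 down to I3 no neighbour in this order differed by more than its spread. I3 at 221 ± 49.2, I4 at 182 ± 27.3, V9 at 159 ± 25.3 (n = 6) and I1 at 147 ± 20.9 came next, and V9 was the only visceral cluster among them. At the low end were I2 at 37.4 ± 24.8, I7 at 17.8 ± 17.2 (n = 6) and I8 at 10.0 ± 4.47 (n = 8). Of the 20 neighbours 2, I3 and I4, and I1 and I2, differed beyond their spread. With at least 30 nuclei per library, which leaves 19 clusters without V10 and I7, these were 5 of 17.

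*Slc5a7* was also low in the interneuron clusters with little *Chat*. In I2 it ran from 11.8 to 70.9 CPM, in I7 from 0 to 48.9 CPM and in I8 from 0 to 14.6 CPM, against 215 to 340 CPM in the mean of I1 and I3 to I6. None of these ranges met that of the other clusters. By limma *Slc5a7* differed on the log2 scale by -2.80 in I2 (standard error 0.20, adjusted p = 4.45e-20), lower in 9 of 9 libraries. It was -3.82 in I7 (limma, standard error 0.24, adjusted p = 3.43e-22), lower in 6 of 6, and -4.13 in I8 (limma, standard error 0.21, adjusted p = 3.01e-28), lower in 8 of 8. The mean leaves out clusters known to be low in *Chat*, and *Slc5a7* followed *Chat* over the interneuron clusters (r = 0.87). These differences are therefore given as a description of size. *Slc5a7* was the only gene called of the 4 tested in I2, where 4.94% of 12967 genes were called, and of the 4 tested in I7, where 5.86% were called. Without the doubted libraries the differences were -2.70, -3.98 and -4.16. A corrected count was found in 18.8% of I2, 8.45% of I7 and 5.67% of I8 nuclei, against 92.1% in I5, and in 12.6%, 6.02%, 3.14% and 78.3% after thinning.

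*Slc5a7* also differed between the skeletal clusters, where S1 was at 374 to 464 CPM and S2 at 189 to 406 CPM. S1 was the higher in 9 of 9 libraries although the ranges overlapped. Limma gave a log2 difference of 0.45 (standard error 0.09, adjusted p = 0.000248) and 0.38 (adjusted p = 0.000129) without the doubted libraries. Of the 5 genes none was called between S1 and S2, where limma called 5.23% of 11465 genes and 3912 had an unadjusted p under 0.05. *Chat* differed by 0.24 in the same direction (limma adjusted p = 0.0334), and by 0.13 without the doubted libraries (adjusted p = 0.139).

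*Chat* and *Slc5a7* were alike over the 21 clusters, with a Pearson r of 0.85 between their mean log2 levels. This is a description of clusters that share libraries, and it carries no test. Over the 13 motor neuron clusters r was 0.35 and over the 8 interneuron clusters 0.87. Within a library and cluster, nuclei with a *Chat* count had a *Slc5a7* count more often than nuclei without, 74.9% against 66.7% with clusters weighted alike in both, a difference of 8.17 ± 5.65 points (SD) in the same direction in 9 of 9 libraries. The corresponding difference was 4.68 ± 3.39 points for *Prima1* (8 of 9 libraries higher), 0.289 ± 6.76 for *Ache* (6 of 9) and -0.783 ± 2.80 for *Slc10a4* (6 of 9 higher), so only for *Slc5a7* and *Prima1* did the mean exceed its SD. Nuclei with higher totals may have more counts of a gene, and the part of depth in these differences was not tested. Because the levels of *Chat* and *Slc5a7* moved together, the promoters of both are shown from RefSeq (GRCm38.p6), 5′ to 3′ on the gene's strand, *Chat* from chr14:32465880-32466159 and *Slc5a7* from chr17:54299005-54299284. The 250 bases before the start are in lower case and the 30 genomic bases from the start on in capitals.
Chat: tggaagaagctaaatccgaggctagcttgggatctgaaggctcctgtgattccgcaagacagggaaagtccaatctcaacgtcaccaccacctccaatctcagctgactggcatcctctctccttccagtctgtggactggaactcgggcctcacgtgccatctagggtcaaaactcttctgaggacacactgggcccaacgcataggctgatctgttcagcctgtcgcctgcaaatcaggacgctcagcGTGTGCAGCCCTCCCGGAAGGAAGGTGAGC
Slc5a7: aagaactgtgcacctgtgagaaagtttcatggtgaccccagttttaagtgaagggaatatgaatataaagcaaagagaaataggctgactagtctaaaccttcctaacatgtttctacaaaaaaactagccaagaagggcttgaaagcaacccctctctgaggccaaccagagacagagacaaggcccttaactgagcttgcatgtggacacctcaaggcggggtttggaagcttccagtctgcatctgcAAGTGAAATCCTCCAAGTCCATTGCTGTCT
All 6 listed genes had a RefSeq promoter, and windows of 300 bases were searched on both strands for TAATTA, the core bound by LIM homeodomain proteins, and for CTAATGG or CTAATTG, the motif of the motor neuron factor Isl1. Neither was found in any of the 6, while 5.29% and 3.94% of 32851 mouse promoters of that length held them. G and C made up 55.7% of the window of *Chat*, 44.7% of *Slc5a7*, 67.0% of *Slc18a3*, 57.3% of *Slc10a4*, 74.0% of *Ache* and 71.7% of *Prima1*.

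**Figure D3:**
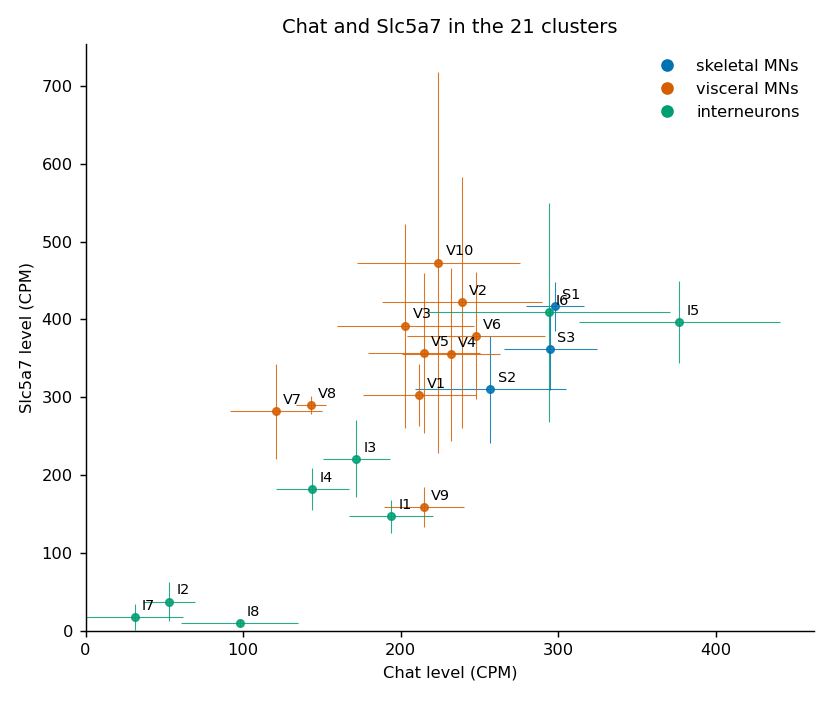
Mean level of *Slc5a7* against that of *Chat* in the 21 clusters, both in CPM; each point is a cluster colored by class and lines are the SD over its libraries. I2, I7 and I8 lie at the low end of both genes, with *Slc5a7* at 37.4, 17.8 and 10.0 CPM, while V9 has 215 CPM of *Chat* but 159 CPM of *Slc5a7*.

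*Slc18a3*, the gene of the vesicular acetylcholine transporter, lies on the same strand wholly inside *Chat* (ENSMUSG00000100241; chr14:32462438-32464850, 2413 bases, minus strand), within the first intron of 4 of 8 annotated *Chat* transcripts. Its level was not analysed here. Reads from pre-mRNA of *Chat* and from *Slc18a3* cannot be told apart over these bases by strand, so a level of *Chat* may include or lack such reads. *Gm2990*, an antisense gene that overlaps *Chat* by 948 bases, was the gene most like *Chat* over clusters (r = 0.85), at 24.1 CPM in I5 and 0.741 CPM in I7.

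*Slc10a4* (ENSMUSG00000029219; chr5:73006883-73012955, plus strand) encodes a protein of the bile acid transporter family that is found on synaptic vesicles of cholinergic and monoaminergic neurons. In skeletal MNs its level was 24.0, 6.68 and 7.87 CPM in cervical, 23.8, 11.8 and 8.97 CPM in thoracic and 16.1, 9.91 and 18.7 CPM in lumbar/sacral replicates 1, 2 and 3. In visceral MNs it ran from 0.803 to 4.07 CPM with a median of 2.95, and in interneurons from 2.51 to 9.47 CPM with a median of 4.47. Every skeletal value lay above every visceral value, while skeletal MNs and interneurons overlapped. Because the gene passed the filter through skeletal MNs alone, it had to differ, and its tests against the other classes are given as a description of the size. The log2 difference of skeletal from visceral MNs was 1.25 (limma, standard error 0.14, adjusted p = 5.81e-08), higher in 9 of 9 libraries, and 1.36 without the doubted libraries. Against interneurons it was 0.91 (standard error 0.14, limma adjusted p = 6.63e-06), higher in 8 of 9 libraries and short of a call. There it passed the size for a call without the doubted libraries, at 1.07 (limma adjusted p = 4.85e-06), and without replicate 2, the male pool, at 1.08 (limma adjusted p = 4.12e-05). With a pseudocount of 5 a difference at such low levels is understated.

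The skeletal signal came from part of the class. S2 stood at 29.0 ± 15.8 CPM (SD, n = 9) and S1 at 17.0 ± 5.50, whereas S3 was at 3.11 ± 1.55 and reached the 10 CPM of the filter in no library, so the same holds for the tests against S3. The range of S3, 0.878 to 5.23 CPM, lay below that of S1, 6.25 to 23.5 CPM, and met that of S2 only through cervical replicate 2, where S2 was at 1.96 CPM against 15.9 to 49.6 CPM in the others. The log2 difference was 1.41 between S1 and S3 (limma, standard error 0.26, adjusted p = 0.000121) and 1.89 between S2 and S3 (limma, standard error 0.26, adjusted p = 1.46e-06), each in 9 of 9 libraries. Without the doubted libraries these were 1.32 and 2.25. Between S1 and S2 the difference was -0.47 (limma adjusted p = 0.196), and -0.93 (limma adjusted p = 0.000187) without the doubted libraries. Between S1 and S3, and likewise between S2 and S3, limma called 2 of the 5 genes, *Slc10a4* and *Prima1*, where it called 5.33% and 8.12% of 11465 genes. The sum of the oligodendrocyte markers *Mbp*, *Mobp* and *Mog* moved with this pattern, at 91.2 ± 19.4 CPM in S1, 91.2 ± 29.5 in S2 and 26.4 ± 4.24 in S3, and *Mbp* itself was at 88.3, 89.3 and 24.1 CPM, while *Mog* was at no more than 0.835 CPM. Their part in the level of *Slc10a4* was not tested.

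Outside S1 and S2 the gene was found mainly in 2 interneuron clusters and a few visceral clusters. I6 was at 21.5 ± 11 CPM and I5 at 15.0 ± 7.85, V9 at 9.95 ± 4.29 (n = 6), V4 at 6.99 ± 4.34 and V8 at 3.89 ± 2.00 (n = 3). V10 at 2.73 ± 2.81 (n = 7), V6 at 2.53 ± 2.41 (n = 8), V2 at 2.35 ± 3.11, V1 at 1.19 ± 1.37, V7 at 1.16 ± 2.32 and V5 at 1.09 ± 2.30 (n = 7) were below or near S3. Many library values there were 0 or rested on few counts. I4 was at 0.957 ± 1.22 CPM, I1 at 0.906 ± 0.898, I3 at 0.756 ± 0.918, I7 at 0.741 ± 1.82 (n = 6), I8 at 0.337 ± 0.952 (n = 8), I2 at 0.251 ± 0.498 and V3 at 0.0888 ± 0.266. Of the 20 neighbours in the order 1, V4 and V8, differed beyond its spread, and with at least 30 nuclei per library S2 and I6, and I5 and V9, did as well. In I2, I7 and I8 the log2 difference from the mean of I1 and I3 to I6 was -0.90, -0.82 and -0.89, with no call. I5 and I6 make up nearly all of that mean and alone reached the 10 CPM of the filter, while I1, I3 and I4 overlapped I2, I7 and I8. The share of nuclei with a count was 21.2% in S2, 14.1% in S1, 2.30% in S3, 16.8% in I6 and 13.8% in I5, and 13.5%, 6.81%, 1.55%, 9.93% and 7.84% after thinning.

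*Ache* (ENSMUSG00000023328; chr5:137287519-137294466, plus strand) encodes acetylcholinesterase, which splits acetylcholine after release. Its level ran from 25.5 to 51.7 CPM in skeletal MNs (median 40.6), from 40.7 to 71.7 CPM in visceral MNs (median 52.6) and from 36.4 to 71.2 CPM in interneurons (median 55.5). Skeletal MNs were the lowest class in 9 of 9 libraries, yet the ranges overlapped, and the libraries of a class differed more from each other than the classes did. The log2 difference was -0.33 between skeletal and visceral MNs (limma, standard error 0.06, adjusted p = 3.26e-05) and -0.37 between skeletal MNs and interneurons (limma, standard error 0.06, adjusted p = 1.01e-05). Both were below the size of a call. Visceral MNs and interneurons differed by -0.04 (limma adjusted p = 0.602), with visceral MNs higher in 4 of 9 libraries.

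The order of *Ache* over clusters had no neighbours of 20 that differed beyond their spread with at least 10 nuclei per library, and 2 of 18 with at least 30, I5 and I6, and I6 and V7. I5 led at 91.9 ± 12.5 CPM and I6 followed at 78.6 ± 21. V4 at 58.5 ± 14.2, V5 at 55.5 ± 14.2 (n = 7), V3 at 54.5 ± 10.7, V9 at 54.7 ± 16.3 (n = 6), V7 at 52.3 ± 13.0, V1 at 50.2 ± 12, I3 at 50 ± 14.1, V2 at 52.9 ± 21.3 and V10 at 50.6 ± 19.0 (n = 7) lay together. S3 at 47.9 ± 11.3, I1 at 48.4 ± 12.5, I7 at 54.2 ± 24.7 (n = 6), V6 at 51.2 ± 23.7 (n = 8), I4 at 47.7 ± 19.9 and V8 at 40.2 ± 12.2 (n = 3) continued the same plateau. The lowest were S1 at 38.2 ± 6.76, I2 at 36.3 ± 10.8, I8 at 36.5 ± 22.7 (n = 8) and S2 at 33.2 ± 14.6. I5, the cluster with the most *Chat*, thus also had the most *Ache*. The value of S2 includes 5.89 CPM in cervical replicate 2, a doubted library, against 21.5 to 52.6 CPM in the others. S2 was below S3 in 7 of 9 libraries, with a log2 difference of -0.58 (limma, standard error 0.17, adjusted p = 0.0121). The log2 difference from the mean of I1 and I3 to I6, which I5 and I6 raise and whose other clusters overlapped I2, I7 and I8, was -0.68 in I2 (limma adjusted p = 0.000164), -0.43 in I7 (adjusted p = 0.0623) and -0.86 in I8 (adjusted p = 2.75e-06). A count was found in 29.3%, 34.4% and 33.8% of skeletal, visceral and interneuron nuclei, and in 17.4%, 21.4% and 21.6% after thinning.

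The gene most like *Ache* over the 21 clusters was *Ufsp1* (r = 0.88), a protease gene that begins 162 bases beyond the end of *Ache* on the same strand (chr5:137294629-137295665). *Ufsp1* was at 29.6 CPM in I5, 19.1 in I6 and 4.82 in S2. Whether transcripts that run past the end of *Ache* add to its counts was not tested. The opposite strand holds the lincRNA gene *Gm42456*, which overlaps *Ache* by 1144 bases.

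*Prima1* (ENSMUSG00000041669; chr12:103196908-103242150, minus strand) encodes the proline-rich membrane anchor that tethers acetylcholinesterase at neuronal membranes. In visceral MNs it was at 243, 332 and 244 CPM in cervical, 196, 490 and 371 CPM in thoracic and 102, 231 and 139 CPM in lumbar/sacral replicates 1, 2 and 3. In skeletal MNs it was at 44.4, 66.0 and 58.9 CPM, 39.4, 80.1 and 60.7 CPM, and 62.1, 91.1 and 66.0 CPM in the same order. In interneurons it was at 108, 147 and 97.6 CPM, 90.1, 190 and 153 CPM, and 53.8, 109 and 94.5 CPM. Every visceral value was above every skeletal value, and interneurons lay between and overlapped both. The log2 difference of skeletal from visceral MNs was -1.86 (limma, standard error 0.15, adjusted p = 6.78e-10), lower in 9 of 9 libraries, and -1.71 without the doubted libraries. Visceral MNs were higher than interneurons by 1.08 (limma, standard error 0.15, adjusted p = 4.51e-06) in 9 of 9 libraries, and by 1.03 without the doubted libraries. Skeletal MNs were lower than interneurons in 8 of 9 libraries, with a log2 difference of -0.79 (limma, standard error 0.15, adjusted p = 0.000147) that did not reach the size of a call.

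Its level ranged over the clusters more widely than that class difference. I5 was at 522 ± 146 CPM, above V1 at 370 ± 136, V2 at 384 ± 195, V10 at 357 ± 117 (n = 7) and V9 at 350 ± 119 (n = 6). V4 at 266 ± 141, V5 at 247 ± 96.4 (n = 7), I6 at 235 ± 78.5, V3 at 234 ± 112, V7 at 165 ± 63.4 and V6 at 183 ± 98.8 (n = 8) followed. Of the visceral clusters only V8 was not among these. S3 at 109 ± 20, I2 at 58.5 ± 14.0, I7 at 47.9 ± 31.7 (n = 6), I8 at 34.8 ± 18.6 (n = 8) and I1 at 26.6 ± 7.46 came next. S1 at 21.8 ± 7.48, S2 at 24.4 ± 20.4, I4 at 17.3 ± 8.45, I3 at 16.4 ± 9.32 and V8 at 3.33 ± 3.82 (n = 3) were the lowest. Neighbours differed beyond their spread in 3 of 20 cases, I5 and V1, S3 and I2, and I3 and V8, and in 6 of 17 with at least 30 nuclei per library. V8 is almost wholly a lumbar/sacral cluster, with 463 of its 467 nuclei from there, and a *Prima1* count was found in 0.982% of its nuclei, against 87.1% of V1 and 96.2% of I5 (1.16%, 74.3% and 88.5% after thinning). *Chat* and *Slc5a7* in V8 were at 143 and 290 CPM, so V8 lacked neither.

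Within skeletal MNs *Prima1* was high where *Slc10a4* was low. Its level in S1 ran from 12.7 to 36.5 CPM and S2 from 0 to 69.7 CPM, while S3 ran from 81.7 to 138 CPM and overlapped neither. The log2 difference was -2.12 between S1 and S3 (limma, standard error 0.25, adjusted p = 2.66e-07) and -2.27 between S2 and S3 (limma, standard error 0.25, adjusted p = 6.46e-08), each in 9 of 9 libraries. Without the doubted libraries they were -2.27 and -2.44. In I2, I7 and I8 *Prima1* ran from 41.3 to 80.1, from 20.7 to 93.0 and from 18.8 to 79.4 CPM, each below the mean of I1 and I3 to I6 at 116 to 225 CPM. That mean is carried by I5 and I6, and I1, I3 and I4 were themselves lower than I2, I7 and I8 on average. The log2 differences were -0.13 in I2 (limma adjusted p = 0.644), -0.52 in I7 (adjusted p = 0.0301) and -0.88 in I8 (adjusted p = 5.49e-06). The test averages log2 levels, in which I5 and I6 weigh less than in the mean CPM. The difference in I8 passed the size for a call only without replicate 1, at -1.02 (limma adjusted p = 0.000273). Over the 21 clusters, however, *Slc10a4* and *Prima1* had a correlation of 0.06, and I5 and I6 were among the higher clusters for both.

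**Figure D4:**
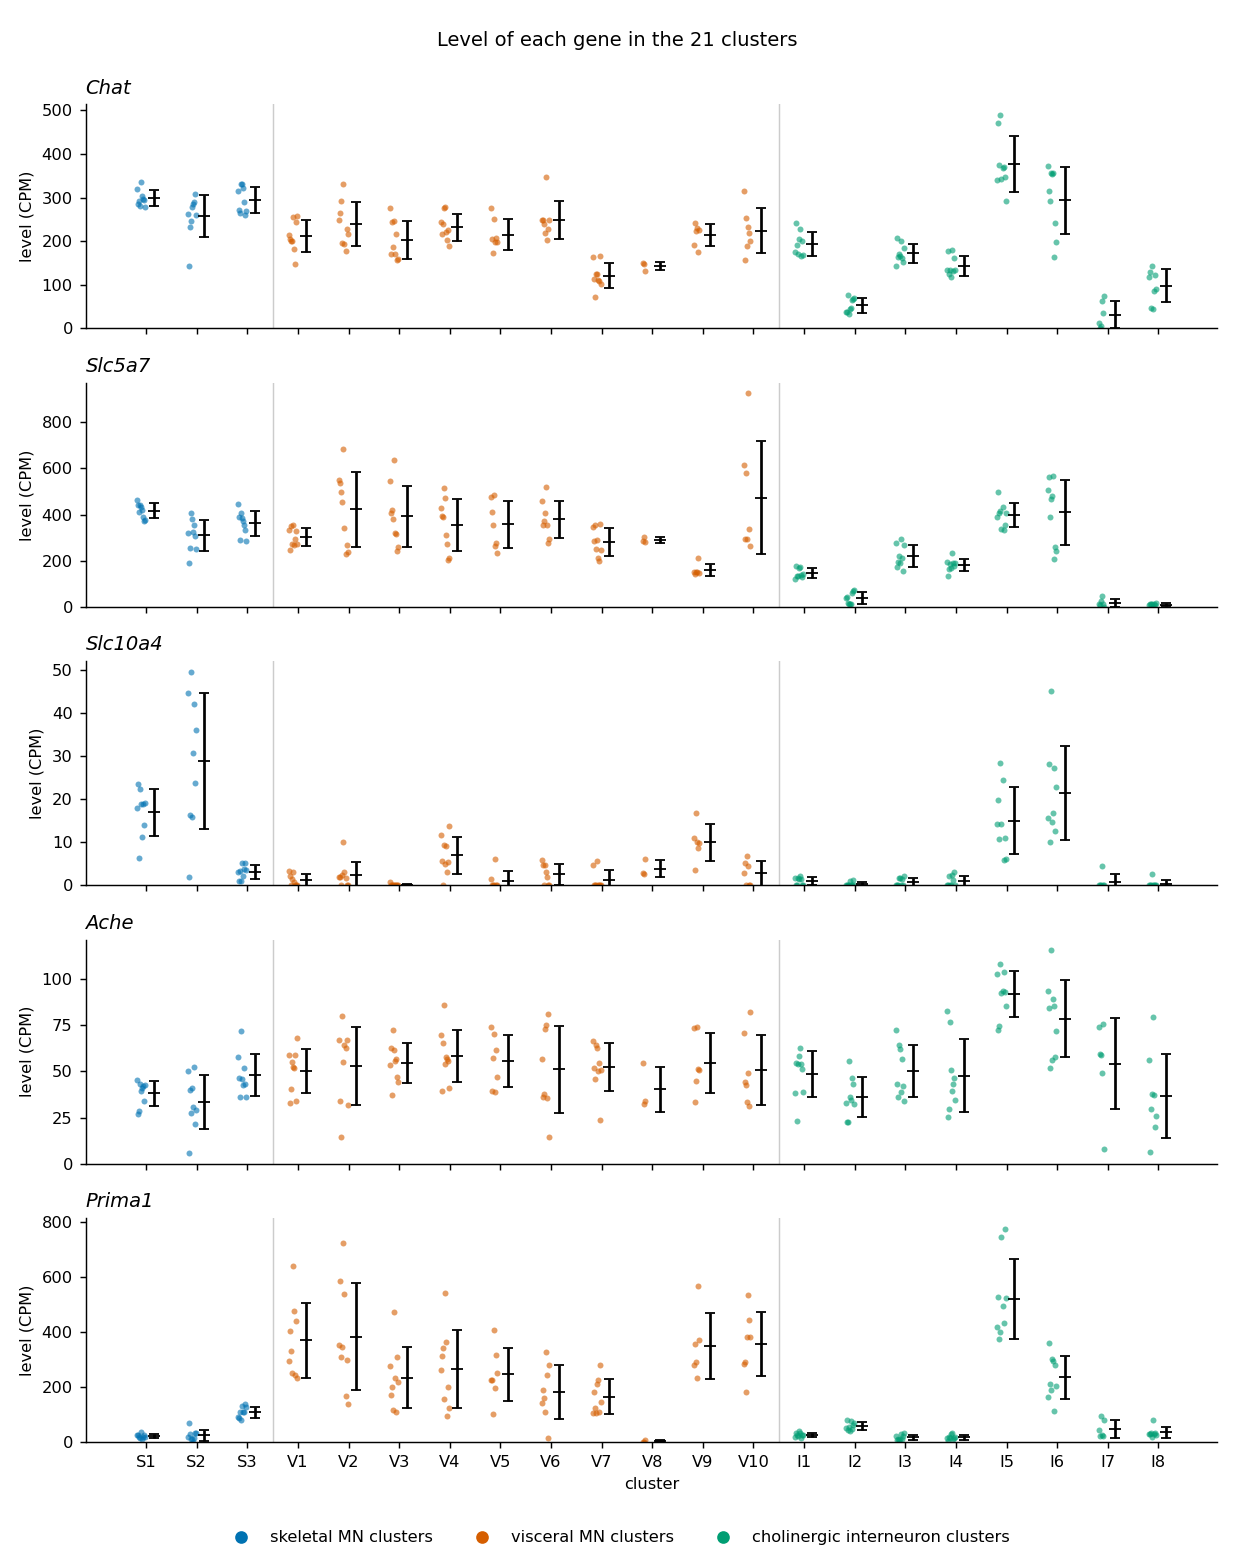
Level in CPM of the 5 measured genes in the 21 clusters, with skeletal MN, visceral MN and interneuron clusters separated by lines; each point is a library with at least 10 nuclei of the cluster and bars are mean ± SD. *Prima1* is at 109 CPM in S3 and at 21.8 and 24.4 CPM in S1 and S2, whereas *Slc10a4* is at 3.11 CPM in S3 and at 17.0 and 29.0 CPM in S1 and S2.

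Levels were then compared between lumbar/sacral libraries and the mean of the cervical and thoracic libraries, called rostral, within each class, where a call needed an adjusted p under 0.05 alone. The authors had run the correction separately on tissue barcoded separately, so a level set across regions spans separate normalizations. In fits without a block, limma called none of the 5 genes in skeletal MNs and none of the 4 tested in the other classes, where *Slc10a4* was below the filter. With the pool of mice as a replicate block it called 1 of the 4 in visceral MNs, *Prima1*. That block gave 737 genes in visceral MNs, 44 in interneurons and 4 in skeletal MNs. Without the block the background was 0.01% of 9999 genes in skeletal MNs (402 genes with an unadjusted p under 0.05), 4.27% of 10031 in visceral MNs (1336 genes) and 0.051% of 9805 in interneurons (331 genes). The 1 gene called in skeletal MNs, *Hoxd11*, and the 5 in interneurons, *Hoxd11*, *Rxfp2*, *Col8a1*, *Gldn* and *Sntg2*, are named after their values were seen. Between cervical and thoracic libraries limma called 0% of genes in each class, with 607, 160 and 189 genes at an unadjusted p under 0.05, and this comparison rests on the doubted labels.

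In visceral MNs *Slc5a7* was at 272, 276 and 257 CPM in the lumbar/sacral libraries, below each of the rostral values, 451, 334, 392, 365, 491 and 292 CPM. On the log2 scale this was -0.50 (limma, standard error 0.16, adjusted p = 0.168), and -0.46 (limma adjusted p = 0.0868) without the doubted libraries. The visceral clusters differed among themselves. In the 5 with at least 10 nuclei in all 9 libraries, lumbar/sacral minus rostral was -1.03 in V2, -0.84 in V4, -0.69 in V3, -0.13 in V7 and -0.02 in V1 on the log2 scale. In V2, V3 and V4 every lumbar/sacral library was below every rostral library. The same held where some libraries had too few nuclei, in V5, at 234 to 276 CPM against 356 to 485 CPM, and in V6, at 275 and 293 CPM against 353 to 520 CPM. In interneurons the same held for I6, at 236 CPM in lumbar/sacral, 487 in cervical and 505 in thoracic libraries (log2 -1.05). S1 did likewise, at 380 CPM against 438 and 432 CPM (log2 -0.19). Over the interneuron class *Slc5a7* was at 154, 147 and 175 CPM in lumbar/sacral and at 188 to 279 CPM in rostral libraries. Its log2 difference there was -0.44 (limma adjusted p = 0.74). I2 went the other way, at 59.1, 70.2 and 70.9 CPM in the lumbar/sacral libraries against 18.6 to 41.1 CPM in the cervical and 11.8 to 13.0 CPM in the thoracic libraries (log2 1.51). *Chat* in interneurons was at 152, 169 and 156 CPM in lumbar/sacral and at 186 to 233 CPM in rostral libraries. Its log2 difference was -0.35 (limma adjusted p = 0.473). Of 6 interneuron clusters it was lower in 5 and higher in 1. In I6 every lumbar/sacral library was below every rostral library for *Chat* (log2 -0.76). These values within clusters are descriptions without a test.

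*Prima1* was the gene whose regional difference was itself unlike between classes. In visceral MNs lumbar/sacral libraries were at 102, 231 and 139 CPM and rostral libraries at 196 to 490 CPM, which overlap through the male pool. In visceral MNs the sum of *Mbp*, *Mobp* and *Mog* was also lower in the lumbar/sacral library of each pool, at 16.1, 30 and 24.9 CPM against 31.0, 38.7 and 28.4 CPM in cervical and 39.7, 32.4 and 36.9 CPM in thoracic libraries, and its part in the level of *Prima1* was not tested. The log2 difference was -0.98 (limma, standard error 0.32, adjusted p = 0.163), -0.76 (adjusted p = 0.296) without the doubted libraries, -0.75 (adjusted p = 0.497) in the 5 clusters with at least 10 nuclei in every library (V1 to V4 and V7), -0.62 (adjusted p = 0.697) with those clusters also weighted equally and -1.16 (adjusted p = 0.0467) without thoracic replicate 1. With the pool of mice as a replicate block its adjusted p was 0.00951. In skeletal MNs the lumbar/sacral libraries were instead the higher ones of each pool, with a log2 difference of 0.32 (limma, standard error 0.22, adjusted p = 0.9). In interneurons the difference was -0.59 (limma, standard error 0.27, adjusted p = 1), -0.57 in I1 to I6, which had at least 10 nuclei in every library, and 0.02 with these also weighted equally.

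The difference between these differences was tested within libraries, as skeletal minus visceral MNs and so on. The regional difference of *Prima1* was higher in skeletal than in visceral MNs by 1.30 on the log2 scale (limma, standard error 0.14, adjusted p = 0.000115) and by 1.25 (adjusted p = 0.000306) without the doubted libraries. It was higher in skeletal MNs than in interneurons by 0.91 (limma, standard error 0.15, adjusted p = 0.0122) and by 0.88 (adjusted p = 0.0302) without the doubted libraries. In visceral MNs against interneurons it was -0.39 (limma, standard error 0.11, adjusted p = 0.0334) and -0.37 (adjusted p = 0.0366) without the doubted libraries. *Prima1* was the 1 gene called of the 4 tested in each case, where 7.34% of 9256, 0.62% of 9188 and 10.4% of 9330 genes were called. Restricted to S1 to S3, V1 to V4, V7 and I1 to I6, the clusters with at least 10 nuclei in every library, the values were 1.07 for skeletal against visceral MNs (limma adjusted p = 0.000662), 0.89 for skeletal MNs against interneurons (adjusted p = 0.0167) and -0.18 for visceral MNs against interneurons (adjusted p = 0.478, no call). With the same clusters also weighted equally they were 0.84 (limma adjusted p = 0.0105), 0.20 (adjusted p = 0.669, no call) and -0.65 (adjusted p = 0.00334). The call between skeletal MNs and interneurons was also lost without lumbar/sacral replicate 1 (0.72, limma adjusted p = 0.0859) and without lumbar/sacral replicate 2 (0.94, adjusted p = 0.0819). The call between visceral MNs and interneurons was lost without lumbar/sacral replicate 3 (-0.25, limma adjusted p = 0.176) and replicate 1 (adjusted p = 0.0886), cervical replicate 3 (adjusted p = 0.0734) and replicate 1 (adjusted p = 0.0504), and thoracic replicate 3 (adjusted p = 0.0625) and replicate 2 (adjusted p = 0.0516). The visceral class is made up of other clusters in each region, among them V8, and within the 5 visceral clusters that had at least 10 nuclei in all 9 libraries the log2 difference of lumbar/sacral from rostral libraries was -1.22 in V2, -1.18 in V4, -0.37 in V1, -0.19 in V3 and 0.13 in V7. V5, with 7 such libraries, was at 197, 318 and 252 CPM in lumbar/sacral against 102 to 409 CPM in rostral libraries, and V6, with 8, at 16.2 and 279 CPM against 110 to 326 CPM. Within the skeletal clusters the log2 difference of *Prima1* was -0.01 in S1, 0.51 in S2 and 0.30 in S3. Interneuron clusters went both ways, at -0.33 in I1, 0.03 in I2, 0.47 in I3, -0.24 in I4, 0.22 in I5 and -0.38 in I6.

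**Figure D5:**
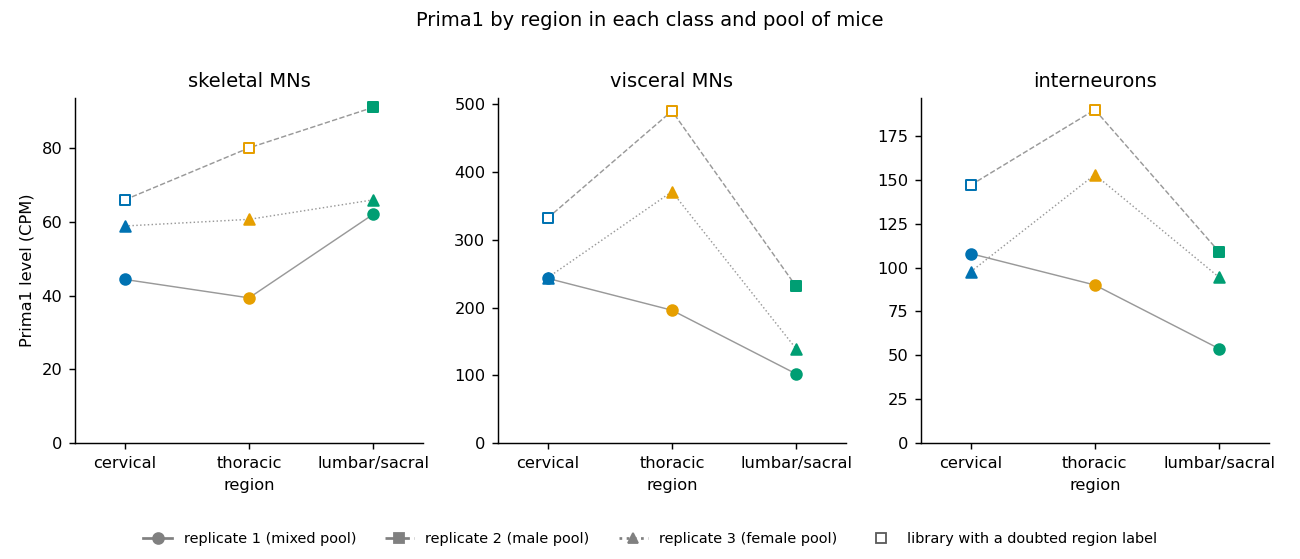
Level of *Prima1* in CPM by region label in skeletal MNs, visceral MNs and interneurons, on separate scales; each point is a library, lines join the libraries of a pool, and open squares are the libraries with a doubted label. In visceral MNs the lumbar/sacral value of each pool, 102, 231 and 139 CPM, is below its own cervical and thoracic values, and in skeletal MNs, 62.1, 91.1 and 66.0 CPM, it is above them.

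The 3 libraries of a pool were taken to come from the same mice. For *Ache* the mixed pool was the highest in 9 of 9 combinations of region and class, for instance at 51.7, 25.5 and 34.9 CPM in cervical skeletal MNs of the mixed, male and female pool. For *Prima1*, under the labels as given, the male pool was the highest in 9 of 9 combinations and the mixed pool the lowest in 8. The 2 libraries with doubted region labels are both of the male pool. With their labels exchanged, its thoracic value in visceral MNs would be 332 CPM, below the 371 CPM of the female pool. In interneurons it would be 147 CPM, below the 153 CPM of the female pool. The microglial gene *Cx3cr1* also differed between pools, at 2.57 to 3.32 CPM in the mixed, 12.2 to 15.3 CPM in the male and 3.54 to 18.8 CPM in the female pool, where cervical replicate 3 was the lowest, and its part in these orders was not tested. Under the labels as given, *Ache* and *Prima1* of the 5 genes had the same pool highest throughout, where 12.1% of 11292 genes did (4.70% the mixed, 7.16% the male and 0.230% the female pool). *Slc10a4* was highest in the mixed pool in 6 combinations, and *Chat* and *Slc5a7* in no pool in more than 5. With 1 pool for each sex, sex and pool of mice cannot be told apart.

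By the rule of highest correlation over the 21 clusters, the 5 genes most like *Chat* were *Gm2990*, *Slc5a7* and *P4ha2* (each r = 0.85), *Ints12* and the GFP transgene (each 0.81). Those most like *Slc5a7* were *Chat* (0.85), *Gm2990* (0.84), *Gm28198*, *Dnm3* (each 0.83) and *Zfp704* (0.81). For *Slc10a4* they were *Tshr*, *Tlk1* (each 0.83), *Glul*, *Gna14* (each 0.80) and *Isoc1* (0.78), and for *Ache*, after *Ufsp1*, *Tsg101*, *Nynrin* (each 0.82), *Lmo2* (0.79) and *Zfp956* (0.78). For *Prima1* they were *Gm29502*, *Ahsa2* (each 0.84), *Ppm1a*, *Thsd4* and *Plcb4* (each 0.82). The clusters share libraries, and genes of low level follow few counts. Among the 5 genes themselves the closest besides *Chat* and *Slc5a7* were *Ache* and *Prima1*, the enzyme and its anchor, at 0.66. *Chat* had 0.52 with *Slc10a4*, 0.38 with *Ache* and 0.35 with *Prima1*.

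Of 27 other genes of acetylcholine supply and breakdown all were measured and 20 passed the filter between classes. Limma called 2 as higher and 1 as lower in skeletal than in visceral MNs, 2 as higher in skeletal MNs than in interneurons and 2 as higher in visceral MNs than in interneurons, with a median absolute log2 difference of 0.35, 0.29 and 0.18. These counts of 20 lie near the shares over all genes, 11.8%, 10.7% and 7.75%, and are no result about the list. The 4 genes called in any of these comparisons are described, and the rest of the 20 were called in none. *Colq*, the collagen tail of acetylcholinesterase, was at 12.1 to 24.9 CPM in skeletal MNs and at no more than 3.21 CPM in the other classes. It came from S1, at 56.9 ± 7.60 CPM (SD, n = 9) against 3.74 ± 5.51 in S2 and 4.55 ± 2.90 in S3, with a log2 difference of 1.97 from visceral MNs and 1.86 from interneurons. *Colq* reached the 10 CPM of the filter through skeletal MNs alone, so it had to differ and these values are a description. *Prima1* and *Colq*, the 2 anchors, were thus highest in separate skeletal clusters. *Slc44a5*, of the choline transporter-like family, was at 301 to 520 CPM in visceral MNs, 112 to 196 CPM in skeletal MNs and 67.9 to 103 CPM in interneurons, with log2 differences of -1.33 between skeletal and visceral MNs (limma adjusted p = 5.36e-11) and 2.17 between visceral MNs and interneurons (limma adjusted p = 3.36e-14). *Acss2*, which makes acetyl-CoA from acetate, was at 138 to 201 CPM in skeletal and 56.8 to 87.1 CPM in visceral MNs (log2 difference 1.18, limma adjusted p = 1.22e-12). *Pld1*, a phospholipase that frees choline, was at 25.2 CPM in skeletal MNs and 15.2 CPM in visceral MNs but at 3.37 CPM in interneurons, lower than the MN classes on the log2 scale by 1.81 and 1.24, and it passed the filter through MNs alone.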

How the data were processed

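Nuclei, clusters and classes were used as labelled by the authors. The deposited score values were read as SCTransform-corrected counts of the authors, from the study's methods and the narrow totals within libraries; the authors had counted reads over whole genes, introns included, of GRCm38 (Cell Ranger 3.1.0), and the correction run in Seurat 3.1.4 on tissue barcoded separately. Corrected counts were summed per library and class or cluster (at least 10 nuclei), scaled to CPM and tested with limma 3.58.1 (R 4.3.3) with a trend on log2(CPM + 5). Fits of classes and clusters held the library as a block. Fits of regions held no block, with 3 libraries for each region. Nuclei held 3219 to 16554 corrected counts, with a median of 7381. Sums and shares were computed with Python 3.11.15, numpy 2.4.6, pandas 2.3.3 and scipy 1.17.1, and doublets were called with Scrublet in scanpy 1.11.5 (164 nuclei, 1.02%, kept except in an alternative).

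Libraries of the same replicate number were taken to come from the same mice. This rests on the study's methods and on the sex and replicate number in the labels. As a check on this pairing, deviations from the region means, over all genes tested and by class, correlated between libraries of the same number with r from -0.22 to 0.92, above 0.1 in 21 of 27 pairs. The other pairs are those of cervical replicate 3, and the region means include the libraries with doubted labels. The members and lists were chosen with earlier results of these data known. Genes named are the 6 members, the genes of the list of acetylcholine supply and breakdown that were called between classes, and for each member the 5 genes with the highest correlation over the 21 clusters, apart from markers and genes said to be chosen after their values were seen. The alternatives were pseudocounts of 1 and 20, no filter, scaling by the median of ratios, no fold minimum, no block or the replicate block, equal weight over the clusters with at least 10 nuclei in every library, at least 30 nuclei, no doublets, thinning to 4600 counts, at least 2 counts, and leaving out each library or pool. Leaving out cervical replicate 2 and thoracic replicate 2 together, cervical replicate 3 in the fits of classes and clusters, equal weight over clusters for the differences between regional differences, and the clusters of that setting weighted by nuclei were chosen after seeing the data. The fits were tested on simulated data with independent noise and no effect of library. These were scored on an adjusted p under 0.05 alone. The shares given next thus do not hold for calls between classes or clusters, which also need a log2 difference of at least 1. Of the calls, 6.76% were false in skeletal against visceral MNs, 6.59% in S1 against S2 and 3.45% between lumbar/sacral and rostral libraries in visceral MNs. Simulated log2 changes of 0.5, 1 and 2 were recovered in 91.2%, 100% and 100% of cases in the first. The shares were 45.5%, 88.9% and 98.6% in the second and 15.4%, 54.4% and 97% in the third.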

Additional observations from a re-analysis of the deposited data

Results flagged for a closer look

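The regional difference of *Prima1*, lumbar/sacral minus rostral on the log2 scale, was unlike between classes by a test of the difference itself. It was higher in skeletal than in visceral MNs by 1.30 (limma adjusted p = 0.000115), higher in skeletal MNs than in interneurons by 0.91 (limma adjusted p = 0.0122), and the value of visceral MNs against interneurons was -0.39 (limma adjusted p = 0.0334). The first of these was called under each alternative run for it, with values from 0.84 to 1.45. The other 2 were lost under some. The classes hold other clusters in each region. In the 14 clusters of 21 with at least 10 nuclei in every library, which leave out V8, the 3 values were 1.07, 0.89 and -0.18, and the third was not called (limma adjusted p = 0.478). With these clusters also weighted equally they were 0.84, 0.20 and -0.65, and the second was not called (limma adjusted p = 0.669). The regional difference itself was -0.98 in visceral MNs, -0.75 in these clusters and -0.62 with equal weight, and in interneurons -0.59, -0.57 and 0.02.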

How the results depend on the processing

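The 62 differences of single genes that exceeded their standard error were followed through the alternatives, and 19 smaller ones were not. Of their 885 values 839 kept direction and side of the threshold, 30 passed it, 15 no longer did and 1 reversed. Where a value changed, the cause was not tested unless stated.

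With no minimum on the fold, calls rested on the adjusted p alone. Limma then called 7537 genes between skeletal and visceral MNs, 6718 between skeletal MNs and interneurons, 5803 between visceral MNs and interneurons, 2908, 2274 and 3560 between S1 and S2, S1 and S3, and S2 and S3, and 2741, 3445 and 5358 in I2, I7 and I8. Of the 5 measured genes 4, 5 and 3 were called between these classes, 2 between S1 and S2, 5 between S2 and S3, and 3, 3 and 5 in I2, I7 and I8.

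With a pseudocount of 20, which shrinks differences at low levels, 669, 626 and 429 genes were called between the classes, 293, 341 and 488 between the skeletal clusters, and 322, 344 and 680 in I2, I7 and I8. Of the 5 genes 1 was then called between skeletal and visceral MNs, 0 between visceral MNs and interneurons (*Prima1* at 0.99) and 1 between S1 and S3. With a pseudocount of 1, 901 genes were called between S1 and S2, 1147, 1919 and 2195 in I2, I7 and I8, 2 between regions in interneurons and 0 in skeletal MNs. *Slc10a4* was then called between skeletal MNs and interneurons (1 gene of the 5) and in I2, I7 and I8 (2 genes in I2 and 2 in I7), though among interneuron clusters it passed the filter through I5 and I6 alone, where it is high.

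With the pool of mice as a replicate block, limma called 44 genes between lumbar/sacral and rostral libraries in interneurons, 4 in skeletal MNs and 737 in visceral MNs, there with 1 of the listed genes, *Prima1* (adjusted p = 0.00951). The replicate block changed no other call of these genes. In the clusters with at least 10 nuclei in every library (5 of 10 visceral and 6 of 8 interneuron clusters), weighted by nuclei, 174 genes were called between these regions in visceral MNs. For the regional difference 295 were called in skeletal against visceral MNs and 525 in visceral MNs against interneurons, with 0 of the listed genes in the latter (*Prima1* at -0.18). With equal weight over these clusters 96 genes were called between these regions in visceral MNs and 1 in interneurons, and *Prima1* in interneurons reversed to 0.02. For the regional difference equal weight gave 282 genes in skeletal against visceral MNs and 442 in visceral MNs against interneurons. In skeletal MNs against interneurons it gave 69 of 9221 genes, with 0 of the listed genes (*Prima1* at 0.20). These settings for the regional difference were chosen after seeing the data. Scaling by the median of ratios gave 3 genes in interneurons.

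Without a filter 12 genes were called between regions in skeletal MNs. The regional difference was then called as unlike between skeletal MNs and interneurons for 29 genes, with 0 of the listed genes. Between visceral MNs and interneurons it was called for 1053 of 20591 genes, again with 0 of the listed genes. Without cervical replicate 2 and thoracic replicate 2, 13 genes were called between lumbar/sacral and rostral libraries in interneurons, 1 between cervical and thoracic libraries in skeletal MNs, 100 for the regional difference in skeletal MNs against interneurons, and 1 of the listed genes, *Slc10a4*, between skeletal MNs and interneurons.

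Leaving out 1 library or pool at a time, 1 to 2 of the 5 genes were called between skeletal and visceral MNs (without replicate 1 *Slc10a4* did not pass the filter), where 1281 to 1346 of all genes were, and 0 to 1 between skeletal MNs and interneurons, where 1167 to 1226 were. Between lumbar/sacral and rostral libraries 0 to 1 genes were called in skeletal MNs, 1 to 9 in interneurons, and 160 to 471 in visceral MNs with 0 to 1 of the listed genes. For the regional difference 360 to 721 genes were called in skeletal against visceral MNs, 13 to 82 in skeletal MNs against interneurons and 580 to 1003 in visceral MNs against interneurons, with 0 to 1 of the listed genes in each of the last 2.

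Shares of nuclei moved by more than their SD in 23 of 30 values with thinning or a minimum of 2 counts. Depth limits the low levels: many values of *Slc10a4* by cluster rest on few counts. Pools of 4 mice, 1 for each sex composition, and 2 libraries with doubted region labels limit what the regional comparisons can show.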

Other observations

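The transcript of the GFP transgene, which is counted as a feature of its own, was at 13.3 ± 4.80, 11.7 ± 3.1 and 10.0 ± 2.5 CPM in skeletal MNs, visceral MNs and interneurons (SD, n = 9 libraries). *Slc17a6*, the 1 measured of 2 markers of excitatory neurons, was at 46.0 ± 15.2 CPM in I6 and at no more than 9.81 CPM in a class.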
